A study of Homo sapiens with 15 samples.

Results

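Control 12Z cells were described from 3 of 15 RNA-seq libraries from a study of insulin, viperin and mutant PIK3CA in endometriotic epithelium. 12Z is an immortalised human line derived from an ectopic endometriosis lesion, labelled as epithelial. The 3 control libraries, numbered 4, 5 and 6 in the labels, came from cells given non-targeting siRNA, an empty pBabe vector and vehicle. No other of the 15 carried this combination. The other 12 libraries, 3 in each of 4 groups, all carried siRNA against RSAD2, the gene of the antiviral enzyme viperin. They combined pBabe empty vector or pBabe PIK3CA H1047R, an activating mutant of the catalytic PI3K subunit, with vehicle or 100 nM insulin. The paper also describes insulin, H1047R and viperin conditions without RSAD2 knockdown, which are not among these 15 libraries. What every group shares limits the word resting: each culture was transfected with siRNA and 24 hours later with plasmid, and then kept without serum for 4 hours before a further 24 hours in serum-free vehicle or insulin. The line has a single origin, so the values describe 1 cell line, and the replicates were independent experiments according to the methods.

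Cells of an epithelium are held together by E-cadherin junctions and desmosomes and carry keratin filaments, whereas mesenchymal cells such as fibroblasts carry vimentin filaments, N-cadherin and a collagen-rich matrix. A change of the first state towards the second, epithelial-mesenchymal transition, is driven by the ZEB, SNAI and TWIST families of transcription factors. Endometriosis is the growth of endometrium-like tissue outside the uterus, and its biology is usually discussed in terms of oestrogen and progesterone receptors, prostaglandins, cytokines and matrix turnover. Levels of these genes show which of those pathways a control culture of 12Z cells can be read for.

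Levels are given as TPM, a transcript abundance per length scaled to the same total in every library, computed here from the reverse-stranded gene counts and the exonic length of each gene, so that genes can be compared. A gene was called expressed at 1 TPM or more in each of the 3 control libraries. It was placed at the floor when the 3 libraries together held no more than 3 counts, and the TPM that 3 counts would give is then its upper limit, for counting error only. Total gene counts were 29.2, 28.9 and 24.3 M in control libraries 4, 5 and 6, and 16.1 to 39.7 M over the series. The control libraries differed from each other beyond sampling noise (chi-square per degree of freedom 3.14 to 5.07), which does not by itself show separate samples. They were counted as 3 samples because the methods call the replicates independent experiments. The median coefficient of variation over them was 3.98% among the 8709 nuclear protein-coding genes at 10 TPM or more, and 17 of these genes varied by more than 1.5-fold between libraries, led by PHLDA2, TMSB15A and H4C3.

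RSAD2 is the gene targeted in the rest of the series and checks the labels. It had 2.09, 2.22 and 2.59 TPM in control libraries 4, 5 and 6 (84 to 88 counts each), against 0.0548 to 1.04 TPM (2 to 56 counts) in the 12 siRSAD2 libraries. The groups did not overlap. PIK3CA, the gene expressed from the plasmid in other groups, had 22.8 to 25.2 TPM in the control libraries, against 39.5 to 54.8 TPM in the 6 H1047R libraries and 19.4 to 21.9 TPM in the 6 siRSAD2 empty-vector libraries. Outside the control group, siRSAD2 empty-vector vehicle library 3 stood apart, with 486 genes at over 3 times their level in every other library, where each control library had 2 to 7 such genes.

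Control 12Z cells expressed 13921 of 60357 annotated genes, among them 11629 of 19892 protein-coding genes (58.5%) and 1149 of 16739 lncRNA genes. Another 5477 protein-coding genes were at the floor. Expression was spread over many genes: the 10 most abundant nuclear protein-coding genes held 6.42 to 6.58% of nuclear protein-coding TPM, the top 100 held 19.8 to 19.9%, and 838 genes made up 50%. Mitochondrially encoded genes, which are short, held 17.0 to 18.3% of all TPM but 4.22 to 4.55% of counts. They took the first 5 ranks among protein-coding genes, led by MT-CO3, a subunit of cytochrome oxidase, at 18761 ± 705 TPM (SD, n = 3 here and below).

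Among nuclear genes the highest level belonged to TMSB10, a thymosin that binds monomeric actin, with 11288, 11924 and 11540 TPM. Next came the glycolytic enzyme gene GAPDH at 7364 ± 161 TPM and the ferritin light chain FTL at 7133 ± 113 TPM, followed by the cytoplasmic actin ACTB at 4446 ± 208 TPM. The desaturase SCD (4006 ± 108 TPM) and the ferritin heavy chain FTH1 reached a like level. The translation elongation factor EEF2, the galectin LGALS1 and the actin ACTG1 came next. SPARC, a secreted matrix glycoprotein, was among the 10 most abundant nuclear genes at 3037, 2927 and 2917 TPM, and VIM stood within the top 30 at 1781, 1842 and 1822 TPM. The 86 cytosolic ribosomal protein genes together held 5.83 to 6.06% of nuclear protein-coding TPM. This share counts uniquely mapped reads only and depends on the lengths used. With canonical transcript lengths RPS18 had 2346 TPM in place of 1166, and RPS12 1494 TPM in place of 1953. A secreted matrix protein and a mesenchymal filament stood beside household transcripts in these cells.

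The starts of 3 of these abundant genes and of a keratin at 0 counts show the promoters behind the extremes of the scale. The windows below hold 130 bases before and 20 bases from the start, on the gene's strand, from RefSeq (GRCh38.p14). Only genes whose RefSeq start is also the start of the canonical GENCODE transcript are shown. Capitals mark GGGCGG or its reverse complement CCGCCC, the GC box.
TMSB10 (chr2:84905526-84905675, plus strand, 11584 TPM): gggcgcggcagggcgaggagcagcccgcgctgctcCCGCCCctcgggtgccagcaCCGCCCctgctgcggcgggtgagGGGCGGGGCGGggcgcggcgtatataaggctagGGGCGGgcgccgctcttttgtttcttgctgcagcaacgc
SPARC (chr5:151686896-151687045, minus strand, 2960 TPM): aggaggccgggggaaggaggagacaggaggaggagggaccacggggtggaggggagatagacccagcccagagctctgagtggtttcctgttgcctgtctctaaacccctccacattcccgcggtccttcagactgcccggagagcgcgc
VIM (chr10:17228111-17228260, plus strand, 1815 TPM): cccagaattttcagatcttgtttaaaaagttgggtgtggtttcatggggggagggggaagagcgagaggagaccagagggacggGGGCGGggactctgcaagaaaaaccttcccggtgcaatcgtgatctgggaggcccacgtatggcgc
KRT20 (chr17:40885223-40885372, minus strand, 0 TPM): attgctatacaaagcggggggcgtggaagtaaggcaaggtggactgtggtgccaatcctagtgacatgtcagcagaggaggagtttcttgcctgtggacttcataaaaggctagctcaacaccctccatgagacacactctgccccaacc

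The TMSB10 window held 5 GC boxes and 19 CG dinucleotides, VIM held 1 GC box and SPARC none, and the KRT20 window held none and 2 CG dinucleotides. Promoter windows of the same length were matched by symbol for 15325 of 19885 protein-coding genes. A GC box on either strand was present in 61.4% of the windows of 9527 expressed genes, in 23.0% of the windows of 3756 floor genes and in 49.9% of all matched windows. The letters TATAAA, on either strand, were present in 2.76% of windows of expressed genes, 14.5% of floor genes and 6.19% of all. Median CG content followed the order of the GC box, at 15 dinucleotides in expressed, 3 in floor and 12 in all windows. A match describes the letters of a window only.

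The markers given for the line, KRT8, KRT7 and VIM, were all present. KRT8 (chr12:52897187-52949954, GENCODE release 44 on hg38), a type II keratin of simple epithelia, had 651, 663 and 636 TPM. Its partner KRT18 had 920, 895 and 926 TPM, and KRT19 had 851, 848 and 855 TPM. KRT7, a keratin of ductal and glandular epithelia, was lower at 32.1, 31.6 and 29.9 TPM, and the 3 values of KRT80 overlapped these. With canonical transcript lengths KRT7 had 46.3 and KRT80 22.6 TPM. Of the 12 keratins listed, 6 were expressed and 4 were at the floor. KRT14 of basal layers and KRT20 of intestinal and urothelial cells had 0 counts, which allows up to 0.0666 and 0.0785 TPM. The 3 highest keratins were those of simple epithelium. KRT8 and KRT18 share 39.2% and 35.3% of their 50-base words with other genes, and only uniquely mapped reads were counted.

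Desmosomal and tight-junction genes were read in part, whereas the defining adhesion molecules CDH1 and EPCAM were not. Plakoglobin JUP had 115, 105 and 105 TPM and desmoglein DSG2 had 90.4, 90.6 and 91.6 TPM, with desmoplakin DSP at 30.3 ± 1.64 TPM. Claudin CLDN1 had 61.1, 69.5 and 62.6 TPM. Other members were low: the tight-junction genes OCLN, CLDN3 and CLDN4 averaged 3.03, 2.14 and 0.848 TPM, and CLDN7 was at the floor. The desmosomal PKP1 averaged 0.0671 TPM. CDH1, E-cadherin (chr16:68737292-68835537), had a mean of 0.505 ± 0.179 TPM from 61 counts in all 3 libraries, and EPCAM had 0.448 ± 0.221 TPM from 21 counts. Both were under 1 TPM in every control library. Of the 18 adhesion genes 12 were expressed, and of 12 genes of polarity and surface only CD9 (154 TPM), CD24 (130 TPM) and the mucin MUC1 (17.2 TPM) were.

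Among 12 regulators of the epithelial state, 2 were expressed. KLF5 had 42.5, 39.3 and 42.7 TPM and GRHL1 had 1.37 ± 0.26 TPM. The splicing regulator ESRP1 had 3 counts and GRHL2 had 2 counts in the 3 libraries together, and OVOL2 and EHF had 0 counts, allowing up to 0.0682 and 0.0227 TPM. In all, 23 of the 54 epithelial genes were expressed and 16 were at the floor.

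Mesenchymal genes were expressed in larger number: 36 of 41, with none at the floor. All 8 fibroblast matrix genes were read, from SPARC through COL3A1 (1275, 1215 and 1211 TPM) and COL1A1 (1096, 955 and 979 TPM) to decorin DCN (14.6 ± 0.55 TPM). Fibronectin FN1 had 626, 587 and 619 TPM and the proteoglycan lumican, LUM, had 534, 580 and 560 TPM. VIM (chr10:17228241-17237593) averaged 1815 ± 31.1 TPM. CDH2, N-cadherin (chr18:27932879-28177946), had 89.5, 83.4 and 92.8 TPM, over 80 TPM in each library where CDH1 was under 1. Of 13 adhesion and surface genes 12 were expressed and 3 were above 100 TPM, the hyaluronan receptor CD44 at 609 ± 8.08 TPM, THY1 at 199 ± 8.89 TPM and the ectonucleotidase NT5E at 132 TPM. At the low end were PDGFRA (9.12 TPM), FAP (5.80 TPM), S100A4 (5.13 TPM) and ENG, at 0.334 TPM.

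The regulators of epithelial-mesenchymal transition were read at moderate levels, 9 of 12 being expressed. TWIST1 had 32.1, 31.9 and 29.3 TPM and SNAI2 (Slug) had 29.8, 28.3 and 28.7 TPM, and these overlapped. ZEB1, a repressor of CDH1, had 21.9, 23.3 and 22.1 TPM, and ZEB2 had 11.3 ± 0.349 TPM. SNAI1 was at 2.55 TPM, and PRRX1 at 0.023 TPM was the lowest of the group. The contractile genes were mixed. TPM2, CALD1 and MYL9 had 473, 237 and 108 TPM, whereas CNN1 had 9.49, ACTA2 4.08 and TAGLN 2.50 TPM. TAGLN shares 65.5% of its 50-base words with other genes, so its low level cannot be read. Desmin DES was under 1 TPM in every library.

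**Figure D1:**
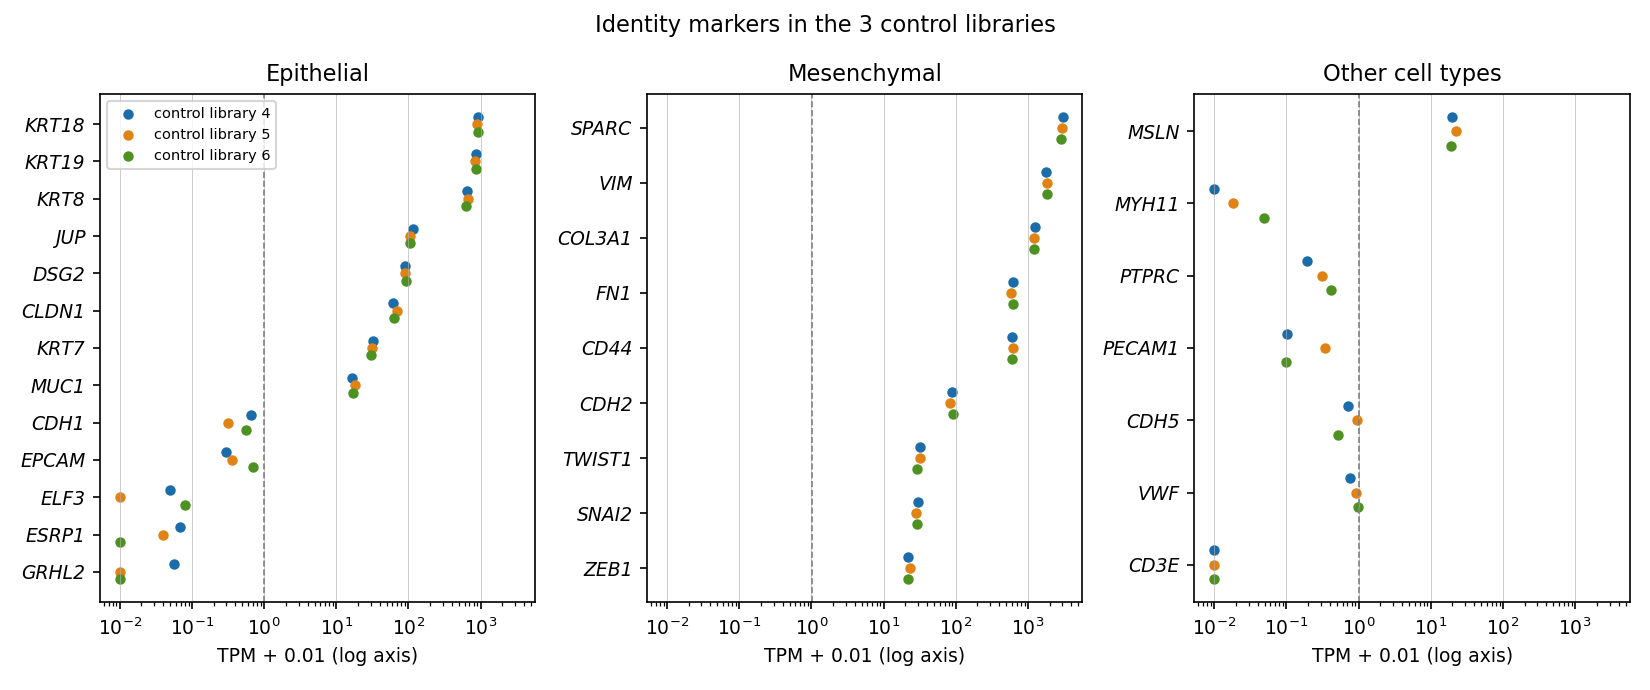
TPM + 0.01 on a log axis for markers of epithelial, mesenchymal and other cell types, a point for each of control libraries 4, 5 and 6, with the dashed line at 1 TPM. KRT18, KRT19 and KRT8 sit between 636 and 926 TPM while CDH1 and EPCAM stay under 1 TPM. The 9 mesenchymal markers shown lie above 20 TPM, but they were picked from a list of 41. Other members were lower, such as PDGFRA (9.12 TPM), FAP (5.80 TPM) and ENG (0.334 TPM).

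The identity of the line as endometrial was checked with 38 genes, of which 16 were expressed. Factors that pattern the Mullerian tract were read. HOXA9 had 58.5, 71.3 and 62.3 TPM, HOXA10, which marks the uterine corpus, 44.4, 44.3 and 46.3 TPM, and HOXA11 27.9 ± 1.4 TPM. These were not the only HOX genes read, since 10 of 11 HOXA, 9 of 10 HOXB and 8 of 9 HOXC genes were expressed. HAND2, known as a progesterone-regulated factor of endometrial stroma, had 32.2, 35.3 and 34.3 TPM. GATA2 had 26.7, 25.5 and 26.5 TPM, overlapping HOXA11, and WT1 had 18.4 TPM. PAX8, a factor of Mullerian epithelium, was low at 4.38, 4.08 and 3.33 TPM. PAX2, FOXA2 (a factor of uterine glands), FOXJ1 of ciliated cells and LHX1 had 0 counts, with upper limits of 0.0228 to 0.0581 TPM. SOX17, another factor of the glandular epithelium, averaged 0.162 TPM.

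Products of glands and decidua were mostly unread. Of the 14 secretory products, 5 were expressed, led by the sulphate transporter SLC26A2 (32.2 TPM), the peptidase DPP4 (28.4 TPM), GPX3 (20.8 TPM) and the cytokine LIF (18.3 TPM). Glycodelin, PAEP, had 0.874, 0.588 and 0.703 TPM, and the secretoglobins SCGB2A1, SCGB1D2 and SCGB2A2 and the trefoil factor TFF3 had 0 counts. Among decidual products the WNT antagonist DKK1 stood out with 510, 534 and 503 TPM, while prolactin PRL had 0 counts (up to 0.105 TPM) and IGFBP1 had 3.

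Most markers of other cell types were under 1 TPM, 6 of 30 being expressed. Of 9 endothelial genes only KDR was expressed (2.68 TPM), and PECAM1, CDH5 and VWF were each under 1 TPM in every library. Their summed level was 4.46 to 5.44 TPM over the 9 genes. Of 12 immune genes only CD14 was (8.83, 6.75 and 9.51 TPM). PTPRC, the pan-leukocyte CD45, had 0.183 to 0.408 TPM and the T cell gene CD3E had 0 counts, and the 12 genes summed to 8.09 to 11.7 TPM. Of 4 smooth muscle genes, SMTN was expressed (16.1, 16.7 and 17.8 TPM), and MYH11 had a mean of 0.0155 TPM. Of 5 mesothelial genes, 3 were expressed: LRRN4 had 43.9, 41.0 and 43.7 TPM, mesothelin MSLN 19.9, 22.6 and 19.4 TPM and calretinin CALB2 3.36 ± 0.41 TPM, with UPK3B under 1 TPM. In bulk RNA a gene in few cells and a low level in all cells cannot be told apart.

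**Figure D2:**
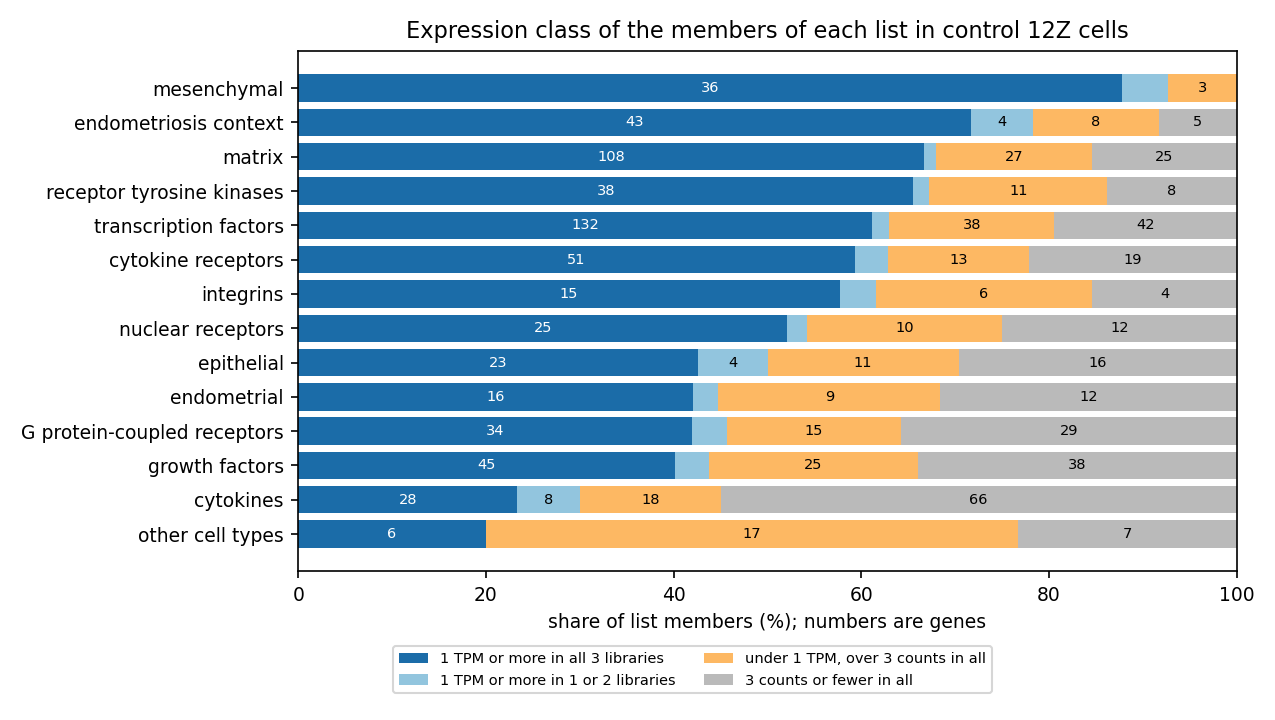
Share of the members of 14 gene lists in 4 expression classes over the 3 control libraries, with the number of genes printed in each bar. The mesenchymal list has the largest expressed share (36 of 41), and of the signalling lists the cytokines have the smallest (28 of 120, with 66 at the floor).

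Of 6 receptors for steroid hormones, 2 were expressed. NR3C1, the glucocorticoid receptor (chr5:143277931-143435512), had 111, 107 and 106 TPM, and the mineralocorticoid receptor NR3C2 had 1.92, 2.27 and 2.04 TPM. The receptors for progesterone and oestrogen were under 1 TPM in every library. Progesterone receptor PGR had 0.548, 0.466 and 0.568 TPM from 154 counts, and oestrogen receptor ESR1 (chr6:151656691-152129619) 0.0268 TPM from 7 counts. ESR2 had 3 counts in the 3 libraries together, equal to the floor, which stands at 0.0126 TPM. GPER1, the membrane oestrogen receptor, was read at 6.51, 5.43 and 5.73 TPM.

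Of the other 42 nuclear receptors 23 were expressed. NR2F2 (COUP-TFII), an orphan receptor of endometrial stroma, was far above the rest with 269, 250 and 255 TPM, and its relative NR2F1 had 55.3 ± 2.55 TPM. The clock repressor NR1D2 had 79.8 TPM and the thyroid hormone receptor THRA 54.1 TPM, which overlapped NR2F1. Hepatocyte and steroidogenic receptors such as HNF4A and NR5A1 had 0 counts, as did 4 others of the 11 at the floor.

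Receptor tyrosine kinases were broadly expressed, 38 of 58, with 8 at the floor. AXL, a receptor for GAS6, had 384, 360 and 360 TPM, and its ligand gene GAS6 had 59.9, 63.6 and 61.6 TPM in the same cells. EGFR followed with 105, 100 and 105 TPM and the ephrin receptor EPHA2 with 88.3, 81.4 and 82.7 TPM. ROR2, a receptor for WNT5A, had 75.5 ± 0.401 TPM and overlapped the pseudokinase PTK7, and the collagen receptor DDR2 followed with 72.8, 70.2 and 72.3 TPM. The receptors that bind insulin were both present: IGF1R had 27.5 TPM and INSR 12.1 TPM. ERBB4, ALK and NTRK2 were at the floor.

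Cytokine receptors were read more often than cytokines. Of 86 receptor genes 51 were expressed, and of 120 ligand genes 28 were. IL6ST (gp130), the shared subunit of the IL-6 family, had 300, 323 and 316 TPM, with OSMR at 158 TPM and LIFR at 58.2 TPM, whereas the IL-6-binding chain IL6R had 0.646, 0.571 and 0.633 TPM. The ligand IL6 had a mean of 0.14 TPM and oncostatin M (OSM) had 0 counts, while LIF was read at 19.1, 16.9 and 18.7 TPM. The decoy receptor TNFRSF11B (osteoprotegerin) had 204, 213 and 197 TPM and TNFRSF1A, the main TNF receptor, 160, 174 and 168 TPM. TNF itself had 0 counts (up to 0.0895 TPM).

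All subunits of the interferon receptors but IL10RB were expressed, from IFNGR2 (46.9, 48.3 and 49.5 TPM) to IFNAR2 (2.30 TPM), and the reads of IL10RB are largely shared with an overlapping gene. None of the 10 interferon genes was: IFNE, the epithelial interferon of the genital tract, had 1.15, 0.966 and 0.346 TPM, IFNB1 had 1 count in all, and the remaining 8 genes had 0, of which IFNA1 shares its reads with near-identical genes. Receptors for IL-1 were read, with IL1RAP at 28.2 TPM and IL1R1 at 24.5 TPM, and the double-stranded RNA sensor TLR3 had 10.3, 11.5 and 10.9 TPM. The class II receptor IL13RA1 led its group with 83.5 TPM, and the TGF-beta receptors TGFBR2 and TGFBR1 had 76.9 and 61.1 TPM.

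G protein-coupled receptors were selective, with 34 of 81 expressed. The thrombin receptor F2R had 141, 149 and 144 TPM, the WNT receptor FZD6 118.8 ± 4.1 TPM, and the oxytocin receptor OXTR 77.3, 71.2 and 71.6 TPM, the last overlapping the adenosine receptor ADORA2B. Of the prostanoid receptors, that for prostaglandin F, PTGFR, was highest (17.7, 19.1 and 15.3 TPM), and PTGER2 had 3.23 TPM. Chemokine receptors were the least often expressed of the 6 groups, 3 of 22. They were ACKR3 (4.81 TPM), CCR10 (1.75 TPM) and CXCR4 (1.41 TPM), and ACKR3 and CXCR4 are the receptors for CXCL12. Gonadotropin-related receptors FSHR and GNRHR had 0 counts.

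Among the 43 chemokines 10 were expressed. CXCL12 (chr10:44370165-44386493), a chemokine of stromal cells, had 62.7, 63.1 and 61.7 TPM. CXCL6, a neutrophil attractant, had 28.2, 36.0 and 29.1 TPM, CXCL16 25.9 TPM and CCL2 19.9 TPM. CXCL8 averaged 4.04 TPM. Of 39 interleukins 7 were expressed, led by IL18 with 41.6, 45.4 and 47.1 TPM and IL11 with 7.76 TPM, and IL1B had 2.31 TPM. The stem cell factor KITLG had 45.5, 45.6 and 45.3 TPM, and CSF1, which acts on macrophages, had 28.9 TPM. Of the TNF family, TNFSF4 (OX40 ligand) and TNFSF10 (TRAIL) had 24.8 and 16.3 TPM.

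Growth factors showed a strong lead by IGF-binding proteins. IGFBP4 had 562, 567 and 550 TPM, IGFBP6 218, 200 and 197 TPM and IGFBP7 91.9 TPM. IGF1 and INS had 0 counts, allowing up to 0.0185 and 0.229 TPM, and IGF2 had 2, so the ligands of this system were at the floor while its receptors and 6 of its binding proteins were expressed. TGFB1 had 158, 133 and 140 TPM, the lymphangiogenic factor VEGFC 112 ± 2.74 TPM and VEGFB 89.0 TPM, while VEGFA had 16.5, 16.9 and 17.6 TPM. FGF2 had 41.6 TPM and FGF7 22.0 TPM. HBEGF led the EGF family with 14.3, 13.9 and 13.6 TPM, and WNT5A led the WNT genes with 34.4, 31.8 and 30.7 TPM. In all 45 of 112 growth factors were expressed and 38 were at the floor.

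**Figure D3:**
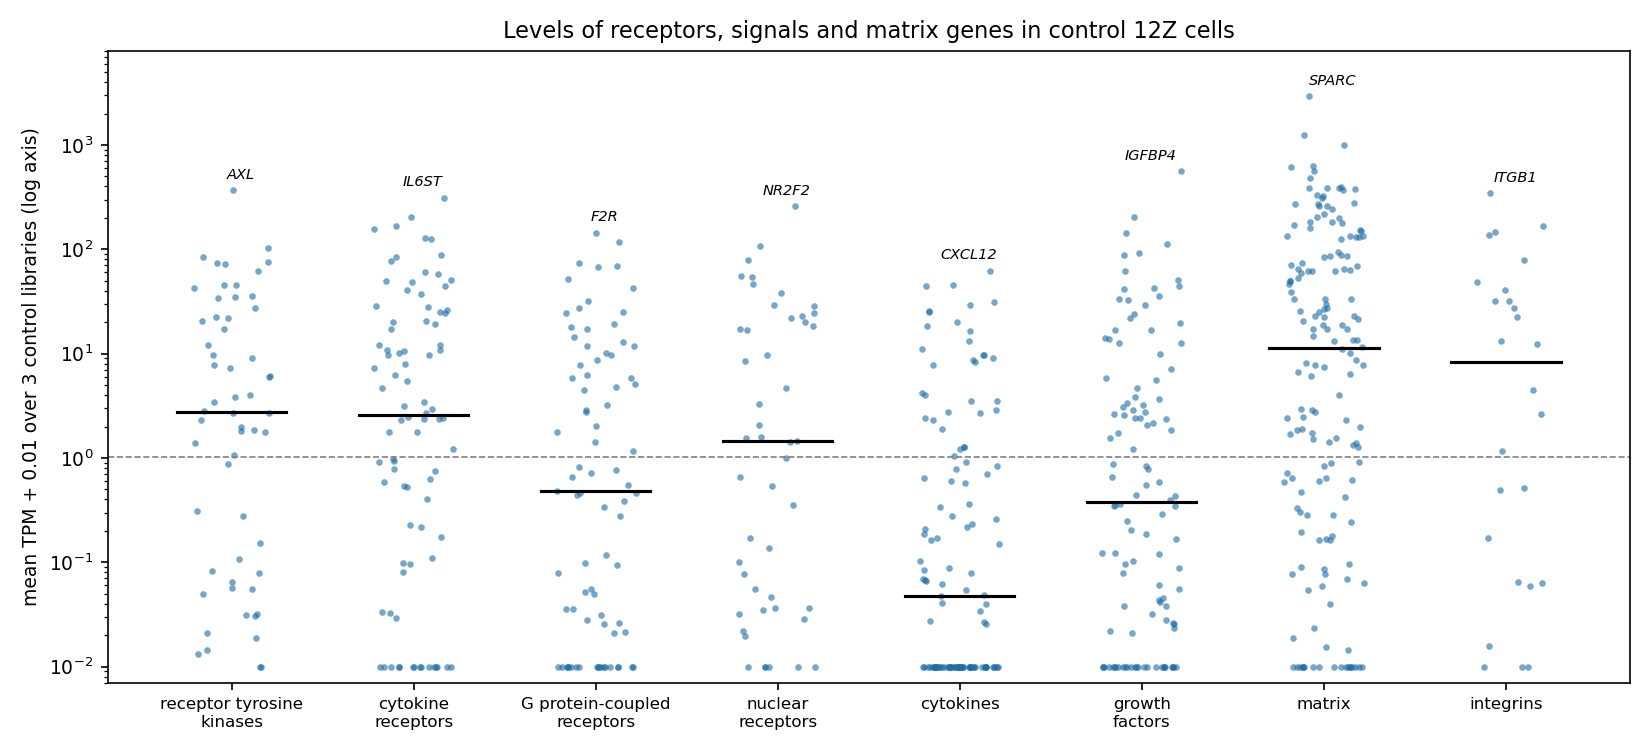
Mean TPM + 0.01 over the 3 control libraries on a log axis, a point for each gene of 8 lists, with the median of the list as a bar, the dashed line at 1 TPM and the highest gene named. The medians of cytokines (0.038 TPM) and growth factors (0.369 TPM) lie under 1 TPM, and those of matrix genes (11.3 TPM) and integrins (8.37 TPM) above it.

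The matrix list held 2.11 to 2.18% of nuclear protein-coding TPM, and 108 of its 162 genes were expressed. Collagens were unevenly read: 22 of 44 were expressed, and the 5 highest held 0.385 to 0.414% of nuclear protein-coding TPM against 0.470 to 0.502% for all 44. These 5 were COL3A1, COL1A1, COL5A2 (458, 501 and 479 TPM), COL6A1 (217 TPM) and COL1A2, which form interstitial fibrils and microfibrils. The second chain of type I collagen, COL1A2, had 194, 176 and 179 TPM where COL1A1 had 955 to 1096. COL4A1 and COL4A2 of basement membranes had 62.5 and 86.9 TPM, and COL6A3, the partner of COL6A1 and COL6A2, had 0.712 TPM. COL17A1 of hemidesmosomes had 0.291 TPM.

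Basement membrane genes other than collagen were mostly read, 13 of 16. The laminin chain LAMC1 had 175, 164 and 172 TPM, LAMB1 86.7 TPM, LAMA5 49.5 TPM and nidogen NID1 88.9 TPM, the last overlapping LAMB1. That overlap depended on the lengths used, as canonical transcript lengths gave 53.7 TPM for NID1 and 172 TPM for LAMB1. LAMA3 and LAMB3, chains of an epithelial laminin, had 7.50 and 1.37 TPM. All 13 enzymes and chaperones of collagen folding and crosslinking were expressed, led by SERPINH1 (398, 399 and 389 TPM), P4HA1, LOX (280 TPM) and LOXL2 (271 TPM). All 12 protease inhibitors and plasminogen genes were too, with TIMP2 at 653, 612 and 624 TPM and TIMP1 at 386, 386 and 383 TPM.

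Matrix metalloproteases were read in part, 9 of 22. MMP14, which sits in the membrane, had 162, 164 and 155 TPM and MMP2 had 75.3, 69.5 and 69.3 TPM, whereas MMP9 had 0 counts (up to 0.0643 TPM), MMP1 1.67 TPM and MMP7, an epithelial member, 0.167 TPM. Among 26 integrins 15 were expressed. The common beta chain ITGB1 had 330, 356 and 349 TPM. The laminin-binding chains ITGA6 (167 TPM) and ITGA3 (138 TPM) and the fibronectin-binding chain ITGA5 (148 TPM) were the highest alpha chains, and ITGB4 had 31.7 TPM. Leukocyte chains ITGAL and ITGAD had 0 counts, and ITGB6, an epithelial chain, had 0.0493 TPM.

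Transcription factors were expressed in 132 of 216 cases. The HOX genes, which record position along the body axis, showed a pattern by cluster: 10 of 11 HOXA, 9 of 10 HOXB and 8 of 9 HOXC genes were expressed, against 2 of 9 HOXD genes. Summed levels were 327 to 347 TPM for HOXA, 369 to 379 TPM for HOXB, 126 to 131 TPM for HOXC and 8.10 to 9.48 TPM for HOXD, so the clusters did not overlap. HOXB7 was highest (chr17:48607232-48633572) with 120, 120 and 109 TPM, then HOXA5 with 88.9, 93.1 and 95.9 TPM. Posterior members were present in 3 clusters, with HOXA13 at 6.13 TPM, HOXC13 at 4.47 TPM and HOXB13 at 4.20 TPM, while HOXD13 had 0.0976 TPM. HOXB1 had 0 counts (up to 0.0604 TPM).

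**Figure D4:**
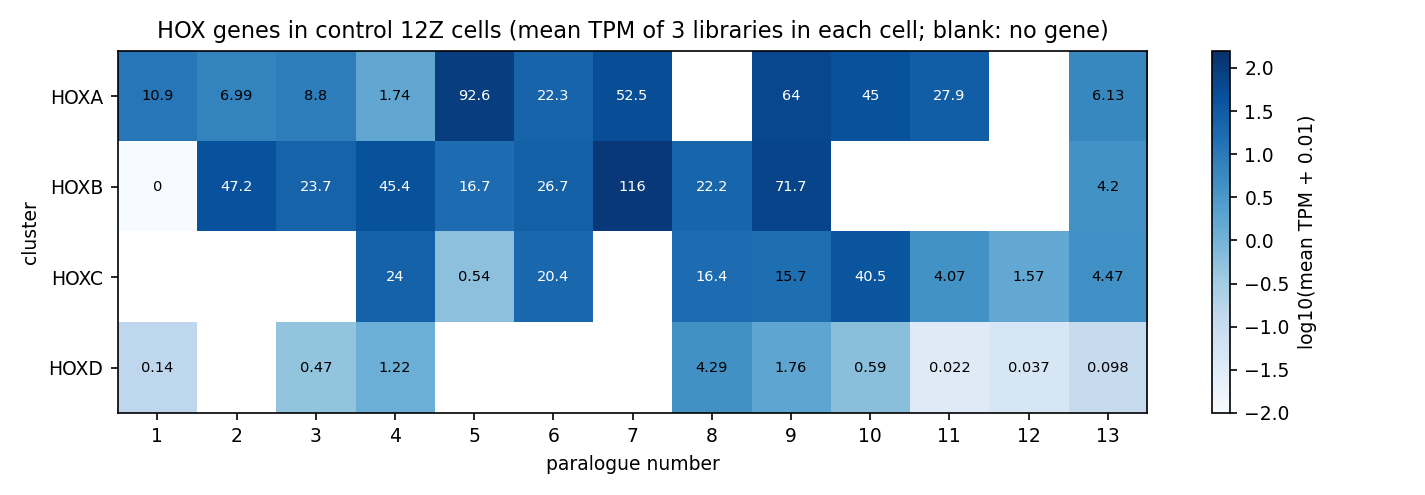
Mean TPM of the 39 HOX genes over the 3 control libraries by cluster and paralogue number, coloured by log10(mean TPM + 0.01), blank where no gene exists. The HOXA, HOXB and HOXC clusters are filled along their length, apart from HOXB1 at 0 and HOXC5 at 0.54 TPM, and the HOXD cluster reaches at most 4.29 TPM.

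Outside the HOX genes, FOXM1, which drives genes of mitosis, was the highest forkhead factor with 308, 282 and 296 TPM, and FOXA1 had 2 counts in all. GATA6 had 74.9, 74.1 and 72.6 TPM, above GATA2 (26.2 TPM) and GATA3 (10.6 TPM). SOX9 had 79.6, 78.7 and 79.5 TPM and SOX12 67.1 TPM, and SOX2 was at the floor. TEAD1, through which YAP acts, had 158, 146 and 151 TPM, and RUNX1 had 27.7 TPM. JUND (166 ± 9.5 TPM), JUN, FOSL1 and FOSL2 carried the AP-1 family, with FOS at 5.87 TPM. Among T-box factors TBX3 and TBX18 had 24.6 and 23.8 TPM, and of 9 PAX genes PAX8 alone was expressed by the exonic lengths used. PAX6 averaged 0.816 TPM, but 1.79 TPM with the longest and 3.70 TPM with the canonical transcript length. Factors of the immune response were read, STAT3 at 85.2, 84.1 and 85.2 TPM, RELA at 63.0 TPM and IRF3 at 54.0 TPM, whereas the myeloid factor SPI1 had 0 counts.

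Genes of the PI3K pathway and other drivers were read in 21 of 22 cases. The catalytic subunits PIK3CB (31.0 TPM), PIK3CD (27.1 TPM) and PIK3CA (23.8 TPM) were read, and AKT1 and AKT2, with 53.4 and 52.6 TPM, overlapped. The insulin receptor substrates IRS1 and IRS2 had 22.4 and 20.1 TPM. CTNNB1, beta-catenin, had 128, 140 and 135 TPM and ARID1A had 38.7 TPM.

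Of 20 genes of oestrogen and prostaglandin metabolism 6 were expressed. Aromatase, CYP19A1 (chr15:51208057-51338601), had 0 counts in all 3 libraries, allowing up to 0.0178 TPM, and CYP11A1 and CYP17A1 had 0 as well. The cyclooxygenases PTGS2 and PTGS1 had 0.296 and 0.270 TPM, whereas the prostaglandin E synthases were present, PTGES with 12.6, 15.8 and 12.0 TPM and PTGES2 with 14.2 TPM. PTGES3, which is also a chaperone of steroid receptors, had 588 TPM. Steroid sulphatase STS (10.4 TPM) and the dehydrogenase HSD17B4 (30.8 TPM) were read.

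Genes of the cell cycle were abundant, and 16 of 18 in this group were expressed. PCNA, the clamp of DNA polymerase, had 1403, 1450 and 1380 TPM, TOP2A 882, 897 and 909 TPM, cyclin CCNB1 726 TPM and the proliferation antigen MKI67 385, 340 and 373 TPM. Transcripts of DNA replication and mitosis were thus among the high ones in these serum-free cultures, and resting stands only for the lack of insulin and mutant. The inhibitors CDKN1A (250 TPM) and CDKN2A (221 TPM) were read beside them. TERT averaged 0.997 TPM.

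How gene lengths are set moved levels more than the replicates did. With the length of the canonical transcript in place of all exons, 107 of 281 named genes moved by over 1.5-fold, and 3 crossed 1 TPM. KRT8 rose to 1510 TPM and ITGB1 to 810 TPM. Many of the moves were falls by the same factor of about 0.602, as for MT-CO3 (to 11300 TPM), TMSB10 and LUM. Levels are scaled to the same total, so a gene of unchanged length moves when other lengths change. Overlaps stated between different genes therefore hold for the exonic lengths only. AKT1, said to overlap AKT2, rose to 119 TPM with its canonical length. With unstranded counts VIM stood at 692 TPM, KRT18 at 597 TPM, HOXA10 at 20.4 TPM and GAPDH at 4292 TPM.

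The control cells were set against the average of the 4 siRSAD2 groups to show which of these levels belonged to the control libraries and not to the line as a whole. Most did not differ in class: of the 1087 distinct listed genes, 563 were at 1 TPM or more in all 15 libraries and 417 were under 1 TPM in all. Over all genes, edgeR called 3222 of 23184 tested genes higher in control cells (13.9%) and 2834 lower (12.2%) at an adjusted p of 0.05. In 3203 of these 6056 called genes the control libraries and the rest did not overlap. Of 860 listed genes tested, 178 were higher in control cells (20.7%) and 186 lower (21.6%). The tested background holds many genes of low count, with which the lists were not matched. These counts were 180 and 188 of 856 without siRSAD2 empty-vector vehicle library 3. The median log2 difference (control minus rest) was -0.05 over the listed genes, beside -0.02 over all. The contrast holds the siRNA together with part of insulin and H1047R, which cannot be told apart in it. Control libraries are numbered 4 to 6 and all others 1 to 3. The labels do not say whether these were separate sets of experiments, and such a difference could not be told apart either.

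Genes of identity stood higher in control cells more often than lower in the epithelial list, 15 (35.7%) against 5 (11.9%) of 42 tested, with a median log2 difference of 0.13. The mesenchymal list had 17 higher (41.5%) and 10 lower (24.4%) of 41, with a median of 0.01. Over all tested genes 13.9% were higher and 12.2% lower, and over all listed genes 20.7% and 21.6%. LUM was higher in control cells, at 362 to 391 CPM against 204 to 253 CPM in the rest, a log2 difference of 0.75 ± 0.04 (SE; edgeR adjusted p = 4.91e-15). The junction gene PKP2 (plakophilin) differed by 0.71 ± 0.05, KRT7 by 0.46 ± 0.06, VIM by 0.40 ± 0.03 and KRT8 by 0.34 ± 0.04. For these 5 genes the groups did not overlap, as for 3203 of all 6056 called genes. Of 9 keratins tested 5 were higher in control cells (55.6%) and 2 lower (22.2%). The lower ones were KRT15 (-0.41 ± 0.14) and KRT17 (-1.38 ± 0.32), which had 1.71 and 0.563 TPM in control cells. Other identity genes also lay lower in control cells without overlap. In the mesenchymal list ACTA2 had 3.86 to 4.43 TPM against 7.87 to 11.6 TPM, and NT5E 126 to 135 against 145 to 239 TPM. In the epithelial list GRHL3 had 0.331 to 0.639 against 1.15 to 2.92 TPM, and CEACAM1 0.308 to 1.03 against 2.09 to 4.45 TPM.

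Of secreted and matrix genes, FSTL1, a secreted glycoprotein, had the largest difference of the named genes after RSAD2: 603 to 641 CPM in control cells against 132 to 167 CPM in the rest, a log2 difference of 2.09 ± 0.03 (edgeR adjusted p = 3.7e-29). CXCL12 had 95.5 to 97.7 CPM in control cells against 31.0 to 45.0 CPM, a difference of 1.36 ± 0.05. Lower in control cells were the stress cytokine GDF15, with 5.58 to 7.87 CPM against 18.8 to 30.6 CPM (-1.84 ± 0.09), IGFBP3 (-0.91 ± 0.05) and the protease inhibitor SERPINE2 (-0.90 ± 0.03). Of 77 growth factors tested 10 were higher (13%) and 23 lower (29.9%), and of 144 matrix genes 31 were higher (21.5%) and 46 lower (31.9%). All listed genes together had 20.7% higher and 21.6% lower, and all tested genes 13.9% and 12.2%.

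Among receptors, the lymphotoxin receptor LTBR had 75.5 to 78.7 CPM in control cells against 30.4 to 39.0 CPM in the rest (1.18 ± 0.05), IL6ST differed by 0.65 ± 0.03, F2R by 0.79 ± 0.04, ITGB3 by 1.13 ± 0.05 and ITGB8 by 0.85 ± 0.05. The vitamin D receptor VDR (-0.86 ± 0.09), the orphan receptor NR4A3 (-1.15 ± 0.15) and FZD4 (-0.57 ± 0.06) were lower in control cells. None of the 5 steroid receptors tested was called. Of 18 TNF receptors tested 2 were higher (11.1%) and 10 lower (55.6%), beside 13.9% and 12.2% of all tested genes. Of 20 interleukins 5 were lower (25%) and none higher, and that share is near the 21.6% lower over all listed genes. Both groups are among the 64 groups of the lists.

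The cell cycle inhibitor CDKN1A was lower in control cells, at 184 to 198 CPM against 419 to 687 CPM in the rest, a log2 difference of -1.45 ± 0.05 (edgeR adjusted p = 1.83e-19). PIK3CB was higher in control cells by 0.80 ± 0.05, at 57.6 to 65.1 CPM against 32.4 to 37.7 CPM. RSAD2 differed by 2.59 ± 0.27. The other named genes higher in control cells were DCN (0.99), DPP4 (0.83), MXI1 of the MYC network (0.74), the receptor kinase genes PDGFRA (0.61) and ROR1 (0.50), and CD9 (0.43), all as log2 differences with separate groups. Those lower in control cells were GPX3 (-0.85), the VEGF receptor KDR (-0.79), TBX3 (-0.77), TNFSF4 (-0.73) and the smooth muscle gene SMTN (-0.30), again with separate groups. Separate groups were common, at 3203 of all 6056 called genes. PIK3CA differed by -0.27 ± 0.04 with overlapping groups: the 6 H1047R libraries lay above control and the 6 siRSAD2 empty-vector libraries below it. Against siRSAD2 empty-vector vehicle cells alone, its difference was 0.22.

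**Figure D5:**
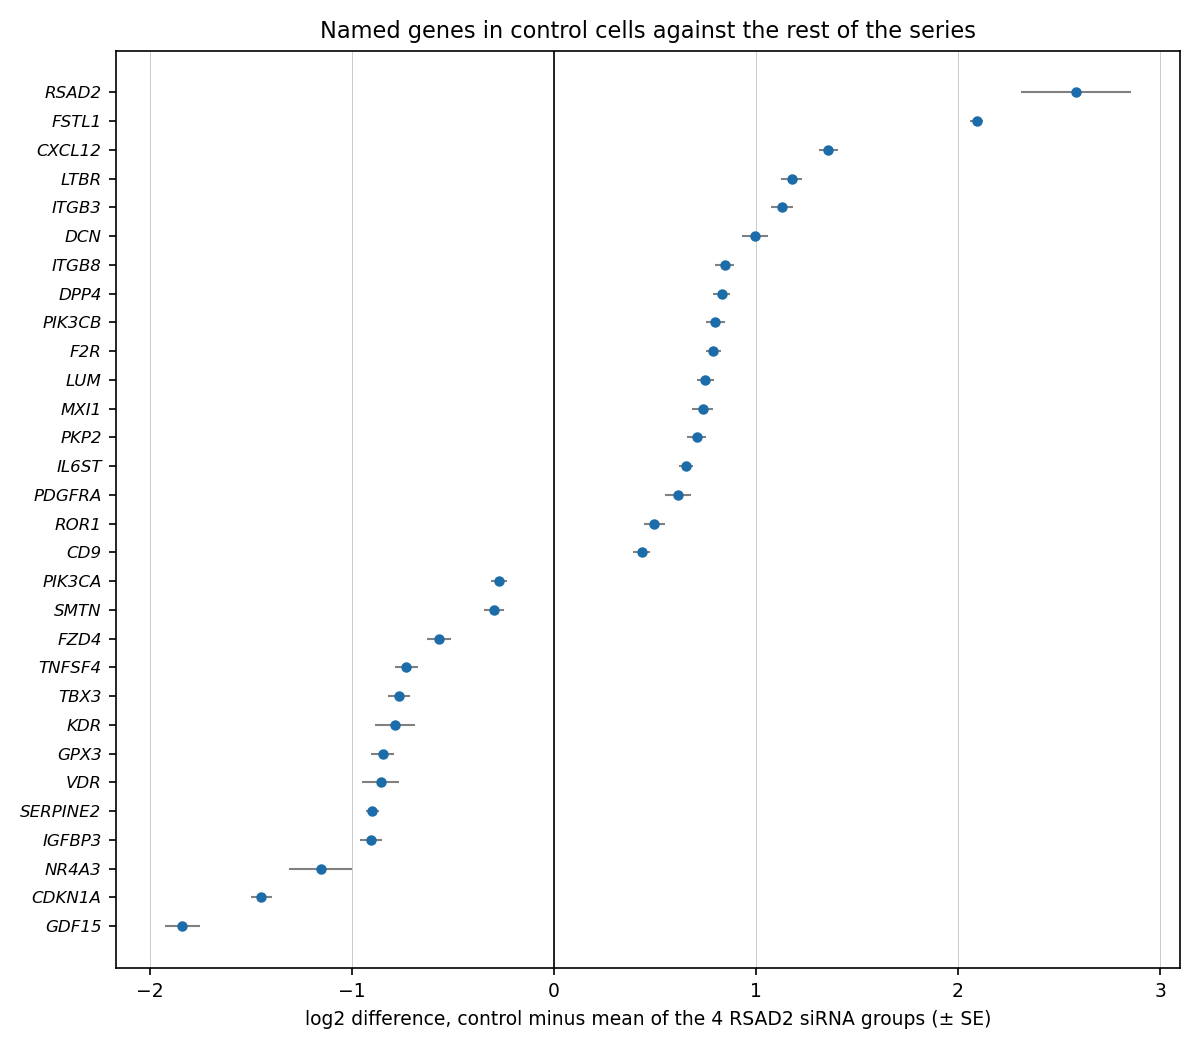
Log2 difference, control minus the mean of the 4 siRSAD2 groups, with its standard error, for the 30 genes chosen for this comparison (3 control against 12 other libraries). FSTL1 at 2.09 and RSAD2 at 2.59 lie farthest above 0, and GDF15 at -1.84 and CDKN1A at -1.45 farthest below.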

How the data were processed

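RNA was measured with a KAPA mRNA kit from 500 ng of total RNA in 15 libraries, grouped from the labels. The deposited values are raw gene counts that the authors obtained with STAR on hg38, after trimming (cutadapt, Trim Galore) and quality checks (FastQC). No normalisation had been applied, and tool versions are not given in the sources used here. STAR counts uniquely mapped reads only. The methods name an annotation release with a mouse number, although the identifiers are human. The reverse-stranded counts were used, unstranded counts were an alternative, and forward counts gave only their share (5.85 to 5.87% in control libraries). Of 60617 identifiers 60357 matched GENCODE release 44, which gave symbols, coordinates and exonic lengths. A set of 4 summary entries per library was left out, multimapping pairs being 10.8 to 15.2% of control read pairs.

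The members and the 14 lists (1087 genes) were chosen with earlier results of these data known. Named genes were RSAD2, PIK3CA, the 20 most abundant protein-coding genes, the 4 highest of each list group, fixed identity, hormone and cytokine genes and, in the comparison, the 2 members of each list with the smallest p among those called. Others were named after their values were seen. Of 276 listed genes at the floor, 16 share over 50% of their exons or 50-base words with other genes, so their absence cannot be read. Of the other 260, 3 counts would give 0.0034 to 0.33 TPM.

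Control cells were compared with the mean of the other 4 groups in 1 edgeR 4.0.16 fit (R 4.3.3) of all libraries, with a term per group, TMM factors, the quasi-likelihood F test and Benjamini-Hochberg adjustment, for genes averaging 1 count or more per library. CPM are counts over TMM-scaled library sizes in M. The fit left 10 residual degrees of freedom. Alternatives used DESeq2 1.42.0, other filters, factors, gene lengths, thresholds and strands, and left out each library. Figures used matplotlib 3.10.9. Some genes of the lists are not reported here by name.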

Additional observations from a re-analysis of the deposited data

How the results depend on the processing

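The number of genes expressed in control cells was 13921, and ranged from 12469 (2 TPM) to 15274 (0.5 TPM) over the alternatives, and from 14253 to 14309 without a control library each in turn. At an adjusted p of 0.001, 1683 genes were higher and 1199 lower in control cells, and with each of the 15 libraries left out the counts ranged from 2359 to 3340 and from 2087 to 3305. The difference of PIK3CA reversed, to 0.22 against -0.27 over all groups, when only the siRSAD2 empty-vector vehicle group was the comparison, which holds no H1047R library. The other 29 of the 30 differences chosen by the rule kept direction and call under every alternative run. Apart from RSAD2, these were picked for the smallest p of their list in the same fit. That they kept their call therefore says little about the other called genes. No paired analysis was possible because the control libraries are numbered 4 to 6 and all others 1 to 3. The canonical transcript length was chosen after seeing the data. It gave levels with a median of 0.763 times those reported, and the longest transcript 0.905 times. Part of each shift is the rescaling to the same total, and what else moved a gene was not tested. Depth limits the genes at the floor, whose upper limits are those of 3 counts.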

Other observations

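Genes outside the lists were also high in control cells. They were chosen after their values were seen and are given as values. Genes of sterol and fatty acid synthesis stood beside SCD. INSIG1 had 848, 892 and 894 TPM, ACLY 783, 748 and 766 TPM, HMGCS1 645, 664 and 701 TPM, and FASN 545, 476 and 511 TPM. UCHL1, a ubiquitin hydrolase of neurons, had 667, 656 and 670.5 TPM, and the neuropeptide NPY 600.2, 614 and 566 TPM. The imprinted genes MEST and PEG10 had 633, 596 and 628 TPM, and 688, 615 and 636 TPM. No list of imprinted or neuroendocrine genes was examined, so these values describe single genes and neither class. NPY had 691 to 1231 TPM in the other 12 libraries.

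Enzymes that make retinoic acid were read, ALDH1A3 with 582, 576 and 580 TPM and ALDH1A2 with 88.2, 88.7 and 93.0 TPM. With unstranded counts ALDH1A3 stood at 184 TPM. The gap junction gene GJA1 had 342, 337 and 337 TPM in control cells, against 94.5 to 125 TPM in the other 12 libraries. The most abundant lncRNAs were NORAD, with 424, 438 and 443 TPM, and MALAT1, with 239, 242 and 202 TPM.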
